A study of Homo sapiens with 4 samples.

Results

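Interferon-stimulated genes are the genes that a cell switches on when interferon, the secreted alarm signal of viral infection, reaches its receptors. A fixed list of 54 such genes, from transcription factors and RNA sensors to antiviral effectors, was followed in HS578T cells, a human breast carcinoma line, after knockdown of TLN1. All 54 were matched by symbol among the 60721 genes of the deposited count table. Of these, 53 had enough counts to be among the 16137 genes tested, and the remaining one, HERC5, had 4 and 6 counts in the control libraries and 1 and 12 in the knockdown libraries. TLN1 encodes talin-1, the adaptor that couples integrins to the actin cytoskeleton.

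The study asked which transcripts depend on talin-1. Every culture received GFP together with an RNA at 1.6 µM, either a non-targeting control (SCR) or an siRNA against TLN1 (siTLN1), and polyadenylated RNA was collected 48 h later. Each group had 2 libraries, which the study describes as biological replicates and labels as replicates 1 and 2. All cultures had thus been transfected with RNA, and no untransfected culture was analysed here. The cells are 1 established line, so the results describe that line.

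Total counts were 31854322 and 34794346 in SCR and 36987264 and 46353297 in siTLN1. The deposited log2 CPM values, the logarithm of counts scaled to library size (CPM), are given below as CPM for each library. TLN1 stood at 868 and 874 CPM in SCR and 51.9 and 44.8 CPM in siTLN1, so 5.55% of its level was left (log2 fold change −4.17, standard error 0.11, adjusted p 3.89e-13 in edgeR's quasi-likelihood test). The labels call the cells epithelial. All 6 mesenchymal markers were measured (summed level 46555 to 48318 CPM in SCR and 46143 to 51535 CPM in siTLN1). CDH2 (−0.89) and SPARC (−0.48) fell on the log2 scale (edgeR adjusted p 2.4e-05 and 0.016). FN1, the largest part of the sum, was higher in both siTLN1 libraries (0.25, 0.343). VIM (0.02), COL1A1 (−0.19) and THY1 (−0.30) also had adjusted p above 0.05. Of 7 epithelial markers 4 were measured (123 to 153 CPM over the libraries), and EPCAM, KRT19 and ESRP1 were not. KRT18 alone stood at 104 to 131 CPM, and CDH1 was higher in both siTLN1 libraries at under 1 CPM (0.83, 0.192). Of the immune markers, CD3E, LYZ and TYROBP had no count in any library, and the 3 measured ones summed to between 1.30 and 1.82 CPM.

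Type I interferons bind a receptor pair on the cell surface and activate the kinases JAK1 and TYK2, which phosphorylate STAT proteins. STAT2 and its partners join IRF9 in a complex that enters the nucleus and binds the interferon-stimulated response element (ISRE), a short sequence near the start of most of these genes. Type II interferon acts through STAT dimers on another element, the GAS site, and IRF1 carries that signal further. Many of the genes are also transcribed at a low level without added interferon.

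The response element is shown first because it is a sequence feature that many of these genes have, though not all. RefSeq promoters of GRCh38.p14, from 250 bases before to 50 bases after a start site, existed for 45 of the 54 genes. The core GAAANNGAAA was searched on both strands. It was found in 29 of these 45 genes (64.4%) and in 460 of 11365 tested genes with a promoter in the table (4.05%). Counted by promoter it was in 33 of 62 (53.2%), against 1255 of 35116 promoters in all (3.57%). The GAS core TTCNNNGAA was in 14 of the 45 genes (31.1%) and in 8.79% of tested genes, and the 2 searches can pick overlapping bases. A match is a run of letters, not evidence of binding.

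Below are 30-base windows of 8 genes, read 5′ to 3′ on the gene's own strand with the core in capitals. The choice covers genes with some of the largest differences between libraries (BST2, IFIT1, ISG15, IFI6, MX1), the most abundant gene per length (IFITM3), a gene that was nearly level (DTX3L) and one of the higher ones in siTLN1 (ISG20).
ISG15, chr1:1013380-1013409, plus strand: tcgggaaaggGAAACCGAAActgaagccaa
IFI6, chr1:27672288-27672317, minus strand: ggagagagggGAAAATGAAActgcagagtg
IFIT1, chr10:89392497-89392526, plus strand, core on the opposite strand: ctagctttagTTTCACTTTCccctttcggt
BST2, chr19:17405741-17405770, minus strand: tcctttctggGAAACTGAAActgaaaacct
MX1, chr21:41420559-41420588, plus strand: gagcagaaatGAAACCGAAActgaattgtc
IFITM3, chr11:320876-320905, minus strand: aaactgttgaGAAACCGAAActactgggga
DTX3L, chr3:122564322-122564351, plus strand: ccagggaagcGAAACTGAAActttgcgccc
ISG20, chr15:88638937-88638966, plus strand: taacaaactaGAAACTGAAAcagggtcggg

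ISG15, IFI6, IFIT1, BST2 and IFITM3 each hold more than 1 match in their promoter, and IFI6 holds 3. In MX1 the printed core begins 12 bases after the start site, and in ISG15 it begins 107 bases before it (position −107). The DTX3L window lies where the starts of DTX3L and PARP9, on opposite strands, overlap. PARP9 on the minus strand reads the same bases as gggcgcaaagTTTCAGTTTCgcttccctgg, so DTX3L and PARP9 share 1 element.

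Most of the 53 measured genes were transcribed at low to moderate levels without added interferon. By mean CPM over the 4 libraries, 3 lay under 1 CPM, 21 between 1 and 10, 25 between 10 and 100, and 4 at 100 or more. Levels between genes were compared per kilobase of exon (RPKM). IFITM3, a membrane protein that blocks virus fusion, was highest at 132 RPKM, followed by IFI6 at 36.1 RPKM, the RNA-editing enzyme ADAR at 25.2 RPKM and the ubiquitin-like modifier ISG15 at 17.6 RPKM. The low end held ISG20 at 0.110 RPKM, RSAD2 at 0.206 RPKM and IFI27 at 0.211 RPKM. The spread of the list was thus wide in these cells.

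**Figure D1:**
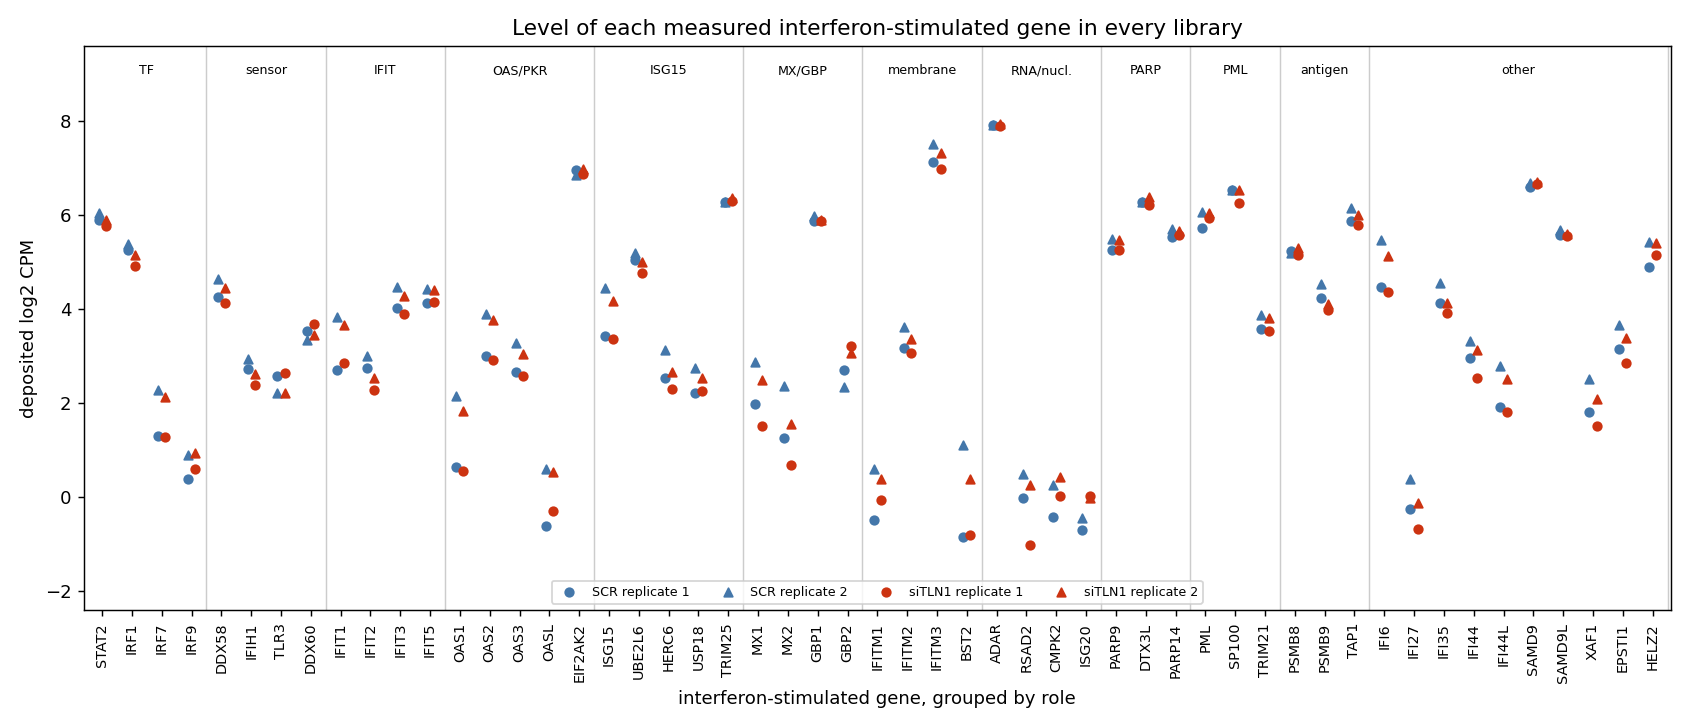
Level of each measured interferon-stimulated gene in every library (y axis, deposited log2 CPM), with genes on the x axis grouped by role. Blue is SCR and red siTLN1, and circles are replicate 1 and triangles replicate 2. For genes such as OAS1, BST2, ISG15 and IFI6 the triangles of both groups lie above the circles of both groups, while ADAR, TRIM25 and SAMD9 show 4 points close together.

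Loss of TLN1 went with a change past the threshold in 1 interferon-stimulated gene, GBP2, which rose. Of the 53 genes, 1 (1.89%) had an adjusted p under 0.05, against 980 of 16137 genes tested (6.07%), of which 2.3% of all genes were higher and 3.77% were lower. In this fit, without a term for the replicate number, the share of members past the threshold was below the background. It was not below the background in the limma fit with that term, given under the dependence on processing. By sign alone, 36 of 53 log2 fold changes were negative (67.9%, against 49.4% of all tested genes) and their median was −0.13, where the median of all tested genes was 0.0033. Scaling by DESeq2's size factors or by total counts left 36 negative, but the number fell to 19 when SCR replicate 2 or siTLN1 replicate 1 was left out. At an unadjusted p under 0.05 there were 6 members (11.3%), 5 lower and 1 higher, against 19.8% of all tested genes.

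In RNA from whole cultures, fewer cells that express a gene and less of its RNA per cell cannot be told apart. An exact permutation test of a single gene with 2 libraries a group cannot give a p below 0.333. The p values therefore rest on edgeR's model, which shares the spread over all genes. That model had no term for the replicate number, so a replicate difference common to both groups counted as spread.

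**Figure D2:**
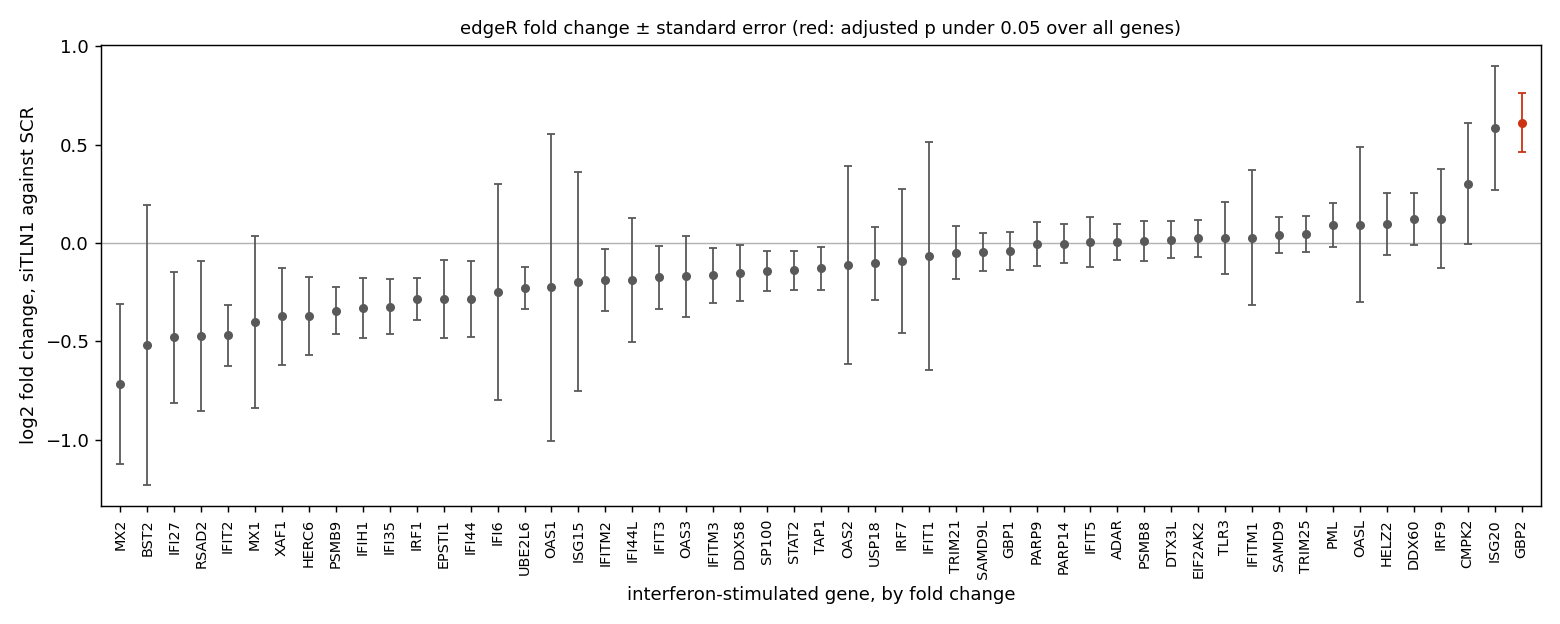
Log2 fold change of siTLN1 against SCR (y axis) for the 53 measured genes in order of size (x axis), with bars of 1 standard error from edgeR's quasi-likelihood fit. GBP2 in red, at 0.61, is the gene with an adjusted p under 0.05, and the bars of OAS1, IFIT1 and BST2 are among the widest.

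The guanylate-binding proteins and MX proteins are large GTPases that act against intracellular microbes and viruses. GBP2 (ENSG00000162645.13; chr1:89106132-89150456, minus strand) stood at 6.50 and 5.11 CPM in SCR and at 9.31 and 8.37 CPM in siTLN1. Both knockdown libraries were above both controls. The log2 fold change was 0.61 ± 0.15 (standard error), at an adjusted p of 0.0238 by edgeR's quasi-likelihood test. The call did not survive the removal of SCR replicate 2 (0.44, adjusted p 0.122 in limma), of siTLN1 replicate 1 (0.54, 0.255) or of siTLN1 replicate 2 (0.69, 0.0598), and it held without SCR replicate 1 (0.79, 0.000663). GBP7 shares 8.60% of the exon bases of GBP2 on the same strand.

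MX2 (ENSG00000183486.13; chr21:41361999-41409393, plus strand) had the lowest fold change of the list. It stood at 2.41 and 5.14 CPM in SCR and 1.62 and 2.95 CPM in siTLN1, which is −0.72 ± 0.41 (standard error) on the log2 scale at an adjusted p of 0.401 (edgeR). Leaving out 1 library moved it from −1.23 without SCR replicate 1 (adjusted p 3.52e-05, limma) to −0.14 without SCR replicate 2 (0.857). MX1, its neighbour at chr21:41420304-41459214, stood at 3.99 and 7.40 CPM in SCR and 2.86 and 5.67 CPM in siTLN1 (−0.40). In both genes the knockdown library was below the control library of the same replicate number, and the groups overlapped. GBP1 was level, at 58.6 and 62.8 CPM in SCR and 58.6 and 59.4 CPM in siTLN1.

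Among the transcription factors that carry the interferon signal, none of the 4 passed the threshold. STAT2 (ENSG00000170581.14; chr12:56341597-56360167, minus strand) stood at 59.3 and 65.7 CPM in SCR and 54.3 and 59.3 CPM in siTLN1. IRF1 (ENSG00000125347.14; chr5:132481609-132490777, minus strand), the factor induced most directly by type II interferon, stood at 38.3 and 41.7 CPM in SCR and 30.2 and 35.3 CPM in siTLN1. In both genes the siTLN1 libraries lay below the SCR libraries, with log2 fold changes of −0.14 and −0.29 and adjusted p of 0.487 and 0.135 (edgeR). For STAT2 the gap was minimal, with 59.29 CPM in SCR replicate 1 and 59.28 CPM in siTLN1 replicate 2. Opposite-strand genes, IRF1-AS1 among them, cover 22.1% of the exon bases of IRF1, and the counting used no strand.

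IRF7, the amplifier of interferon production, stood at 2.48 and 4.88 CPM in SCR and 2.44 and 4.39 CPM in siTLN1. Each group thus had a low replicate 1 and a high replicate 2, and the group difference was −0.09. IRF9, the DNA-binding partner of the STAT complex, was the factor with a positive value, 1.31 and 1.86 CPM in SCR and 1.51 and 1.93 CPM in siTLN1 (0.12, adjusted p 0.851 in edgeR). A gene on the same strand shares 42.2% of its exon bases.

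The RNA sensors recognise viral RNA in the cytoplasm (DDX58, which encodes RIG-I, IFIH1, which encodes MDA5, and DDX60) or in endosomes (TLR3). IFIH1 (ENSG00000115267.8; chr2:162267074-162318684, minus strand) stood at 6.63 and 7.69 CPM in SCR and 5.22 and 6.16 CPM in siTLN1, with no overlap of the groups. Its log2 fold change was −0.33 (standard error 0.15, adjusted p 0.239 in edgeR). DDX60 had 11.7 and 10.2 CPM in SCR and 12.9 and 10.9 CPM in siTLN1 (0.12), and TLR3 6.0 and 4.65 CPM against 6.23 and 4.65 CPM. These 2 sensors were the reverse of most of the list in that replicate 1 was higher than replicate 2 in both groups.

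The IFIT proteins bind viral RNA ends and block translation, and their genes lie side by side on chromosome 10. IFIT2 (ENSG00000119922.10; chr10:89283694-89309271, plus strand) stood at 6.69 and 8.01 CPM in SCR and 4.83 and 5.78 CPM in siTLN1. It had the smallest p of the lower genes, at −0.47 ± 0.16 (standard error) on the log2 scale and an adjusted p of 0.0878 (edgeR). The knockdown was lower by 0.47 on the log2 scale within replicate 1 and within replicate 2 alike. IFIT1, further along the same cluster, moved with the replicate instead, at 6.57 and 14.2 CPM in SCR and 7.20 and 12.6 CPM in siTLN1. IFIT3 (−0.17) and IFIT5 (0.0047) had adjusted p of 0.612 and 0.993.

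The OAS enzymes make short adenylate chains that activate RNase L, and PKR (EIF2AK2) halts translation. None of these 5 genes passed the threshold. OAS1 (ENSG00000089127.13; chr12:112906783-112933222, plus strand) stood at 1.56 and 4.45 CPM in SCR and 1.48 and 3.59 CPM in siTLN1. OASL stood at 0.651 and 1.52 CPM in SCR and 0.823 and 1.46 CPM in siTLN1. In both genes replicate 2 was higher in each group, by between 1.77-fold for OASL in siTLN1 and 2.84-fold for OAS1 in SCR, while the group differences were −0.22 and 0.09 on the log2 scale. OAS2 and OAS3 had the same order of libraries at 5.96 to 14.96 CPM. EIF2AK2 was level at 116 to 126 CPM.

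ISG15 is attached to other proteins by UBE2L6 and HERC5 and removed by USP18. ISG15 (ENSG00000187608.10; chr1:1001138-1014540, plus strand) stood at 10.8 and 21.9 CPM in SCR and 10.4 and 18.1 CPM in siTLN1. Replicate 2 was 2.02-fold higher in SCR and 1.75-fold higher in siTLN1. In edgeR's fit, which has no term for the replicate number, the group difference of −0.20 was smaller than its standard error of 0.56. UBE2L6 (ENSG00000156587.16; chr11:57551656-57568284, minus strand), the E2 enzyme of the pathway, stood at 33.1 and 36.4 CPM in SCR and 27.2 and 32.1 CPM in siTLN1. Its groups did not overlap, at a log2 fold change of −0.23 and an adjusted p of 0.257 (edgeR). HERC6 (−0.37) and USP18 (−0.10) did not pass, and TRIM25, the ubiquitin ligase that activates RIG-I, was level at 78.2 to 82.8 CPM.

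The membrane restriction factors block virus entry (the IFITM proteins) or hold budding particles at the surface (BST2, tetherin). BST2 (ENSG00000130303.13; chr19:17402939-17405630, minus strand) stood at 0.557 and 2.15 CPM in SCR and 0.575 and 1.31 CPM in siTLN1. The SCR libraries differed 3.86-fold, more than any other measured member, and the siTLN1 libraries 2.28-fold. IFITM3 (ENSG00000142089.16; chr11:319676-327537, minus strand) stood at 139.7 and 182 CPM in SCR and 126 and 161 CPM in siTLN1, a log2 fold change of −0.16 (adjusted p 0.588 in edgeR). IFITM1 was low, at 0.714 and 1.52 CPM in SCR and 0.960 and 1.31 CPM in siTLN1, and IFITM2 had 9.05 and 12.3 CPM against 8.43 and 10.2 CPM. The IFITM genes are related copies, and how alike their sequences are was not measured here. By annotated position, IFITM1 shares 37.5% of its exon bases with IFITM2 on the same strand, so their split is uncertain.

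The 4 enzymes that act on RNA or nucleotides did not pass the threshold. ISG20, an exonuclease that degrades viral RNA, stood at 0.620 and 0.742 CPM in SCR and 1.01 and 0.990 CPM in siTLN1. Both knockdown libraries were above both controls, at 0.59 ± 0.32 (standard error) on the log2 scale and an adjusted p of 0.326 (edgeR). CMPK2, a mitochondrial nucleotide kinase, stood at 0.745 and 1.20 CPM in SCR and 1.01 and 1.35 CPM in siTLN1 (0.30). Its neighbour RSAD2 (viperin) had 0.997 and 1.40 CPM against 0.493 and 1.20 CPM (−0.47). ADAR (ENSG00000160710.17; chr1:154582057-154628013, minus strand), which edits double-stranded RNA, was level at 240.5 and 243 CPM in SCR and 239 and 247 CPM in siTLN1.

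The immunoproteasome subunits PSMB8 and PSMB9 and the peptide transporter TAP1 supply peptides to MHC class I and lie together on chromosome 6. PSMB9 (ENSG00000240065.8; chr6:32844136-32859851, plus strand) stood at 18.8 and 23.1 CPM in SCR and 15.9 and 17.2 CPM in siTLN1. Its groups did not overlap (log2 fold change −0.34, standard error 0.12, adjusted p 0.108 in edgeR). PSMB8 was 0.01 and TAP1 −0.13 on the log2 scale. Opposite-strand genes cover 17.3% of the exon bases of PSMB8 (PSMB9 and PSMB8-AS1) and 12.01% of those of TAP1 (PSMB8-AS1).

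PARP9, its partner ligase DTX3L and PARP14, which take part in ADP-ribosylation, were level, with log2 fold changes between −0.0071 and 0.02. Of the genes of PML nuclear bodies and the antibody receptor TRIM21, SP100 had 93.3 CPM in both SCR libraries and 76.8 and 92.5 CPM in siTLN1. Among the 10 other induced genes, log2 fold changes ran from −0.48 for IFI27 to 0.10 for HELZ2, and 8 were negative. IFI35 (ENSG00000068079.7; chr17:43006725-43014456, plus strand) stood at 17.5 and 23.5 CPM in SCR and 15.2 and 17.5 CPM in siTLN1 (−0.32, adjusted p 0.214 in edgeR). IFI6 (ENSG00000126709.15; chr1:27666064-27672198, minus strand), an inhibitor of cell death and of virus replication, stood at 22.1 and 44.2 CPM in SCR and 20.6 and 35.1 CPM in siTLN1. The IFI6 libraries grouped by replicate number, not by treatment.

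The largest differences in the list ran between replicate 1 and replicate 2. Of the 53 genes, 44 (83.0%) were higher in replicate 2 in SCR and also in siTLN1, against 32.1% of all tested genes, and 3 (TLR3, DDX60 and GBP2) were lower in replicate 2 in both. In 13 genes (24.5%, against 0.961% of all tested genes) replicate 2 was higher by at least 0.5 on the log2 scale, which is 1.41-fold, in both groups. These were BST2, OAS1, OASL, IFIT1, MX2, ISG15, IFI6, IRF7, MX1, OAS2, IFI44L, XAF1 and IFI27. The median difference between replicates was 0.38 in SCR and 0.27 in siTLN1 on the log2 scale, where over all tested genes both medians were about 0.002.

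The differences were not limited to genes with low counts. Among members at a mean of 5 CPM or more, 4 of 39 reached 0.5 in both groups, against 13 of 10486 genes of that level. Under 5 CPM the counts were 9 of 14 members and 142 of 5651 genes. Across the 53 members, the replicate difference in SCR and the one in siTLN1 had a Pearson r of 0.87 and a Spearman rho of 0.89 (0.19 and 0.29 across all 16137 genes). The points share libraries and their scaling, and genes are not independent replicates. Members with the core GAAANNGAAA in a promoter (28 measured) had median differences of 0.32 in SCR and 0.31 in siTLN1. Those without it (16 measured) had 0.34 and 0.25.

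In 41 of 53 members (77.4%) the replicate difference, averaged over both groups, was larger in size than the log2 fold change between groups, against 42.7% of all tested genes. The median deviation of the members from their mean over all libraries was −0.12 in SCR replicate 1, 0.27 in SCR replicate 2, −0.23 in siTLN1 replicate 1 and 0.10 in siTLN1 replicate 2. The same median over all tested genes lay between −0.00039 and 0.0055. The labels do not say what a replicate number stands for beyond a biological replicate, and what made replicate 2 higher was not tested.

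**Figure D3:**
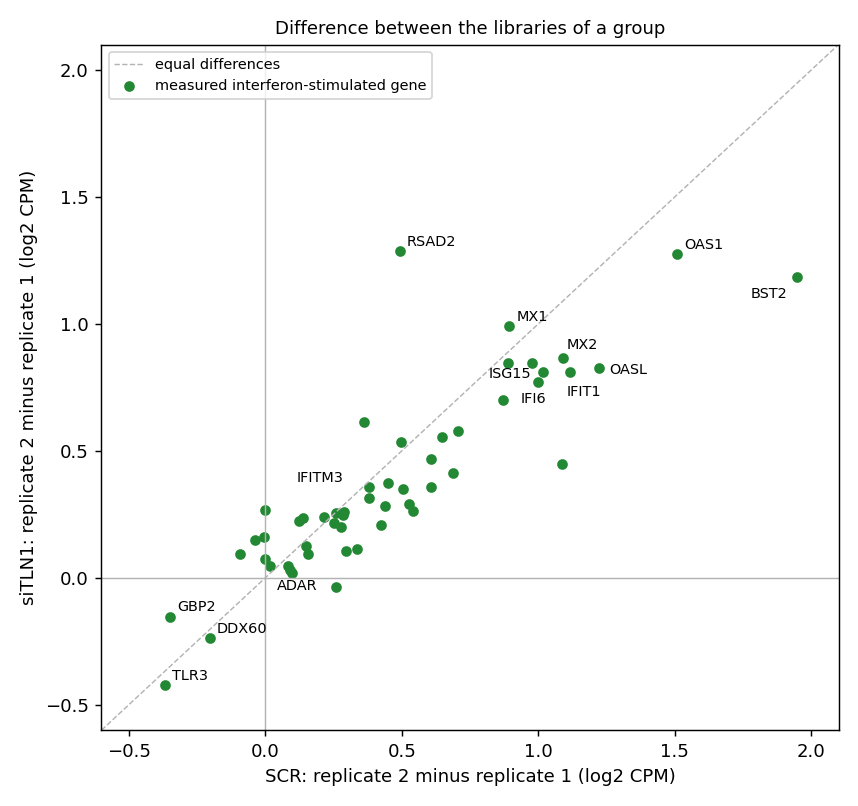
Difference between replicate 2 and replicate 1 in SCR (x axis) and in siTLN1 (y axis), in deposited log2 CPM, with 1 point per measured interferon-stimulated gene and a dashed line of equal differences. Of the 53 points, 44 lie in the upper right quadrant and 3 (TLR3, DDX60 and GBP2) in the lower left, with OAS1 and BST2 farthest out.

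With each knockdown library set against the control library of the same number, more members were lower than higher. In 30 of 53 genes (56.6%, against 34.5% of all tested genes) siTLN1 was lower within both numbers, and in 8 (15.1%, against 35.4%) it was higher within both. The other 15 changed sign between the numbers. The median difference was −0.08 within replicate 1 and −0.17 within replicate 2, and 20 genes were lower by more than 0.1 on the log2 scale in both, against 21.5% of all tested genes. MX2 (−0.58 and −0.80), MX1 (−0.48 and −0.38), IFIT2 (−0.47 and −0.47) and IFI27 (−0.41 and −0.51) were among the lowest in both. GBP2 (0.52 and 0.71) and ISG20 (0.71 and 0.41) were the highest in both.

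Without regard to the number, fewer genes separated the groups. Both siTLN1 libraries were below both SCR libraries for 7 members (13.2%, against 24.6% of all tested genes), namely STAT2, IRF1, IFIH1, IFIT2, UBE2L6, SP100 and PSMB9. Both were above for 3 (GBP2, TRIM25 and ISG20), where the share in all tested genes was 23.9%. The difference of BST2 depended on the number, at 0.05 within replicate 1 and −0.72 within replicate 2. The Pearson r between the 2 within-number differences was 0.64 and the Spearman rho 0.68 over the 53 genes, as a description.

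**Figure D4:**
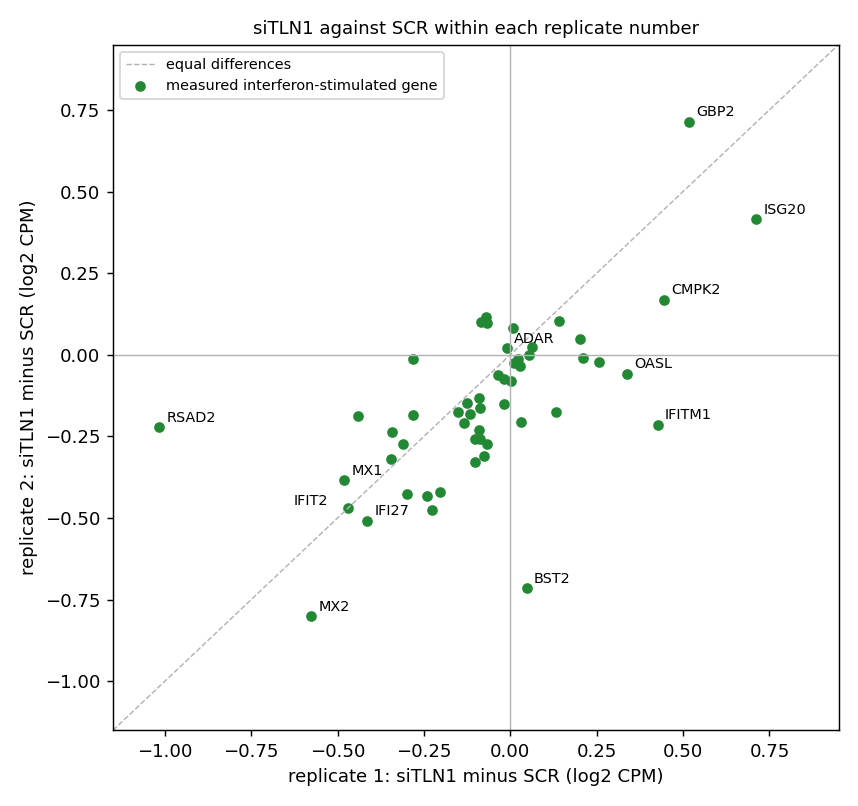
Difference between siTLN1 and SCR within replicate 1 (x axis) and within replicate 2 (y axis), in deposited log2 CPM, with 1 point per measured interferon-stimulated gene and a dashed line of equal differences. The lower left quadrant holds 30 genes and the upper right 8, with GBP2 and ISG20 far to the upper right and MX2 far to the lower left.

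Leaving out 1 library left its group with 1 replicate number only, and the list moved as a whole. The median log2 fold change was −0.35 without SCR replicate 1 and −0.31 without siTLN1 replicate 2. It was 0.04 without SCR replicate 2 and 0.06 without siTLN1 replicate 1. The number of members with a negative value was 44, 45, 19 and 19 of 53 in the same order. In these fits with limma on the log2 CPM, 16 members were past the threshold without SCR replicate 1 (15 lower, among them ISG15, IFI6, OAS1, MX1, MX2 and BST2, and GBP2 higher), as were 1169 of the 16137 genes. Without SCR replicate 2 they were IFIT1 and HELZ2, both higher, of 1005 genes in all. There were 0 members past it without siTLN1 replicate 1 (1 at an unadjusted p under 0.05; 319 genes in all past the threshold) and 0 without siTLN1 replicate 2 (20; 544). The lone library left in a group is assumed to vary like the other group.

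The rest of the pathway was followed with 86 further genes in 6 lists, of which 67 were measured. None of the 67 passed the threshold as higher and 3 passed it as lower, namely MAVS, SOCS3 and SLFN5. Of all tested genes, 2.3% passed it as higher and 3.77% as lower. At an unadjusted p under 0.05 there were 12 of the 67, against 19.8% of all tested genes. Within both replicate numbers 41 were lower and 11 were higher, against 34.5% and 35.4% of all tested genes. Replicate 2 was higher in both groups for 31 of the 67 (32.1% of all tested genes), and by 0.5 or more on the log2 scale for 0 of them (0.961%).

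The interferons themselves were almost without counts. Of 9 interferon genes, IFNE alone was measured, at 0.462 and 0.455 CPM in SCR and 0.438 and 0.713 CPM in siTLN1. IFNB1, the main type I interferon of non-immune cells, had 1 and 3 counts in SCR and 0 and 3 in siTLN1. IFNK, IFNW1, IFNL2, IFNL3 and IFNG had no count in any library, which allows up to 3 counts, or 0.0647 to 0.0942 CPM by library. These limits cover counting error only.

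All 8 measured genes of the 9 receptors and JAK kinases were lower in siTLN1 within both replicate numbers (34.5% of all tested genes), and none passed the threshold. Within replicate 2 the difference was as small as −0.015 for IFNGR1 and −0.020 for JAK2. Both siTLN1 libraries lay below both SCR libraries for 4 of the 8 (24.6% of all tested genes). JAK1, the kinase shared by the interferon receptors, stood at 281 and 267 CPM in SCR and 222 and 227 CPM in siTLN1. Its groups did not overlap (log2 fold change −0.29, standard error 0.09, adjusted p 0.0713 in edgeR, 0.0492 in DESeq2). TYK2, the second kinase of the type I receptor, stood at 70.4 and 69.6 CPM in SCR and 64.4 and 61.4 CPM in siTLN1 (−0.15, adjusted p 0.395 in edgeR).

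MAVS is the mitochondrial adaptor through which RIG-I and MDA5 induce interferon. It stood at 284 and 255 CPM in SCR and 218 and 201 CPM in siTLN1, and fell by 0.36 on the log2 scale (standard error 0.10, adjusted p 0.0324 in edgeR). SOCS3, a feedback inhibitor of JAK signalling, stood at 38.5 and 40.8 CPM in SCR and 29.5 and 31.3 CPM in siTLN1, and fell by 0.38 (0.10, 0.0283). SLFN5, an interferon-induced gene of the Schlafen family, stood at 40.5 and 34.9 CPM in SCR and 29.5 and 25.9 CPM in siTLN1, and fell by 0.45 (0.11, 0.0225). In all 3 genes both siTLN1 libraries lay below both SCR libraries, and the difference within replicate 1 was close to that within replicate 2.

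These 3 calls were lost when every gene with a count was kept (adjusted p 0.0697, 0.0716 and 0.0561 in the order named) and without either siTLN1 library (0.0534 to 0.305 over the 3 genes). Without SCR replicate 1 MAVS (0.185) and SLFN5 (0.106) also lost theirs, as did SOCS3 without SCR replicate 2 (0.101).

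The other genes named by their p in the lists did not pass. TRAF6, an adaptor of innate signalling, stood at 13.9 and 11.9 CPM in SCR and 14.9 and 15.9 CPM in siTLN1 (0.26, adjusted p 0.246 in edgeR), and TRIM14, a cofactor of MAVS, at 19.2 and 18.4 CPM against 14.2 and 15.1 CPM (−0.36, 0.0680). RNASEH2C, a subunit of the enzyme that removes RNA from RNA-DNA hybrids, stood at 28.1 and 32.9 CPM against 26.8 and 26.3 CPM (−0.20, 0.318). None of the 13 genes of MHC class I presentation passed. PSMB10, the third immunoproteasome subunit, stood at 4.08 and 4.65 CPM in SCR and 2.17 and 3.29 CPM in siTLN1 (−0.67, 0.0661), and HLA-F at 3.39 and 5.37 CPM against 2.80 and 3.54 CPM (−0.47, 0.263). Genes on the same strand share 39.4% of the exon bases of PSMB10.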

How the data were processed

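Polyadenylated RNA of the 4 libraries was sequenced. The authors deposited a count table, for which featureCounts 2.0.0 ran in paired mode without a strand option on GENCODE 33 (GRCh38), per the file headers. It also gives gene length in exon bases. The submitters' processing notes name STAR 2.7.9a, Subread 2.0.0 and edgeR 3.34.1, without roles. The authors also deposited log2 CPM for 16137 genes. Checked against TMM-scaled log2 CPM computed here, 100% of those values matched to 6 decimals once ordered within each group. Count columns carry no replicate label and were mapped to groups only. Replicate numbers stand only in the log2 CPM columns, which give all values per library.

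The counts were tested with edgeR 4.0.16 in R 4.3.3: filterByExpr (minimum count 10, minimum total 15), TMM, robust glmQLFit and glmQLFTest, with Benjamini-Hochberg adjustment over 16137 genes and a threshold of 0.05. The biological coefficient of variation was 0.0805. Fits that use replicate numbers were run with limma 3.58.1 (trend) on the deposited log2 CPM. DESeq2 1.42.0, RLE and total-count scaling and 2 filters on low counts were alternatives. On data simulated for this comparison, edgeR recovered 200 of 200 genes changed 2-fold among 15828, with 9 false calls. The log2 fold changes of the measured members, from −0.72 to 0.61, were all smaller than 2-fold. The simulation therefore does not show how often changes of that size would be found in this list. Nor does it show how often a 2-fold change would be found in members whose replicates differed widely. For these, standard errors in the main fit reached 0.78 for OAS1 and 0.71 for BST2 on the log2 scale. P values set a difference against the spread between these libraries, as shared over genes by the model.

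Described members are those past the threshold, the 8 smallest p, the 4 highest and 4 lowest fold changes at 1 CPM or more, the 4 highest levels per length, the 4 largest replicate differences, the transcription factors and the IFITM genes. For each pathway list they are the 2 smallest p and all past the threshold. Other members are named by role. The members, lists and tests were chosen with earlier results of these data known.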

Additional observations from a re-analysis of the deposited data

How the results depend on the processing

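With all 4 libraries and no replicate block, GBP2 was the 1 member past the threshold in every alternative run. These runs were DESeq2, RLE scaling, total counts only, limma on the log2 CPM, a mean of at least 10 counts, and no filter. As a part of the main fit rather than a run, the 39 members at 5 CPM or more also held GBP2 alone past the threshold. The pathway lists had 3 genes past it, 5 with DESeq2, 5 with total counts only and 0 with no filter on low counts. Of the values of named genes in these fits, 199 stayed on the same side of 0 and of the threshold and 5 did not (JAK1, MAVS, SOCS3, SLFN5 and PSMB10). DESeq2 gave no adjusted p for 6 named genes. Across all genes, 980 were past the threshold, and from 663 with no filter to 1253 with total counts only.

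Same-numbered libraries deviated together, with a correlation of 0.19 across genes (0.53 over the 10500 genes at 5 CPM or more), and the count columns hold further numbers that recur once per group, but 2 pairs do not establish a pairing. With the replicate block in limma, 14 of 53 members were past the threshold (13 lower, GBP2 higher), as were 15 pathway genes. Of all 16137 genes tested, 3650 were past it, 1930 lower and 1720 higher. The share of members past the threshold was thus not below that of all genes, unlike in the fit without the block. In that fit ISG15 was −0.17 ± 0.09 (standard error, adjusted p 0.186 in limma) and MX2 −0.69 ± 0.18 (0.00168). Leaving out 1 library gave 0 to 16 members, 0 to 7 pathway genes and 319 to 1169 genes in all, and a member median from −0.35 to 0.057. Named genes that changed sign when 1 library was left out had log2 fold changes from −0.13 to 0.38 (IRF9), −0.037 to 0.65 (CMPK2), −0.017 to 0.028 (ADAR), −0.47 to 0.75 (OASL), −0.44 to 0.65 (IFITM1), −1.31 to 0.64 (BST2), −0.93 to 0.062 (MX1), −0.68 to 0.34 (ISG15), −0.72 to 0.28 (IFI6), −0.35 to 0.027 (IFITM3), −0.95 to 0.56 (OAS1), −0.57 to 0.40 (IRF7), −0.40 to 0.038 (IFITM2) and −0.067 to 0.64 (IFNE). Among those that kept their sign, values moved by over 1.5 times for MX2 (−1.23 to −0.14), HLA-F (−0.77 to −0.11), IFI35 (−0.52 to −0.099), PSMB9 (−0.48 to −0.19), IFIH1 (−0.45 to −0.21), IRF1 (−0.40 to −0.18), UBE2L6 (−0.35 to −0.11), STAT2 (−0.21 to −0.063), DDX60 (0.0037 to 0.24), PSMB10 (−1.01 to −0.41), RNASEH2C (−0.31 to −0.083) and TRAF6 (0.15 to 0.37). With 1 library left out, its group rested on the other replicate number alone, so each value moved with the replicate difference of that group. What made the replicates differ was not tested. Members under 5 CPM rest on few counts, and 2 libraries a group limit every comparison.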

Other observations

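The guanylate-binding protein genes lie in 1 cluster on chromosome 1, and 2 of them, GBP1 and GBP2, are members of the list. The other genes of the cluster were looked at after their values had been seen. GBP5 (chr1:89258950-89272804, minus strand), which takes part in inflammasome assembly, stood at 2.32 and 2.81 CPM in SCR and 1.26 and 1.76 CPM in siTLN1. Both knockdown libraries were below both controls, opposite to GBP2, at −0.77 ± 0.23 (standard error) on the log2 scale and an adjusted p of 0.0631 (edgeR). GBP3 at 58.8 to 62.5 CPM (−0.06) and GBP4 at 0.521 to 0.777 CPM (−0.19) had adjusted p of 0.789 and 0.848. GBP6 had 0 counts in both SCR libraries and 4 and 6 in siTLN1, and GBP7, which shares exon bases with GBP2, had 1 and 3 counts in SCR and 3 in each siTLN1 library.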
